A study of Mus musculus with 12 samples.

Results

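The genes described here are the amino acid carriers of solute carrier families Slc1, Slc3, Slc6, Slc7, Slc36, Slc38 and Slc43, measured on 12 single-colour Agilent arrays of mouse embryonic stem cells with and without knockdown of Ino80. The families were chosen with earlier results of these data known, and within them members were taken by name alone. Every non-control probe whose gene name in the scanner files was one of these family names followed by a member number was taken, which gave 95 of 41174 probes and 55 genes. Of the 55 genes, 43 passed the filter on dim probes (both arrays of some group well above background) and were tested, and 34 were well above background on all 12 arrays. Not every member moves an amino acid: Slc6a3 carries dopamine, Slc6a4 serotonin, Slc6a8 creatine and Slc43a3 purine nucleobases. The filter favours differences in genes that were bright in few groups: 7 of the 43 (Slc1a2, Slc1a7, Slc6a4, Slc6a14, Slc7a10, Slc7a11 and Slc36a3) passed it through groups of 1 hairpin alone, and counts over the 43 are not counts over the 55.

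Amino acid carriers are membrane proteins that decide which amino acids enter and leave a cell. Carriers of Slc1, Slc6 and Slc38 mostly draw on the sodium gradient, and some Slc36 carriers move amino acids together with protons. Many Slc7 carriers swap an amino acid inside for another outside and reach the membrane only with an Slc3 heavy chain. Mouse embryonic stem cells are known for their need for threonine and glutamine and for their response to proline in the medium.

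The cells were J1, a mouse embryonic stem cell line. In the shIno80 groups they received a lentivirus with a short hairpin RNA against Ino80, whose product drives the INO80 chromatin remodeller, and in the shNT groups a lentivirus with a non-targeting hairpin. RNA was collected at days 2, 4 and 6, given in the labels as 48, 96 and 144 hours, which made 6 groups of 2 arrays. All groups were of the same line, kept in ESGRO medium and moved to M15 medium for infection, and the replicates are listed as biological. The sources used here do not give the number of hairpins or how replicate cultures were made, so a p-value speaks only of the spread among these arrays, which may in part be technical.

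Signals below are log2 of the processed intensity minus the 75th percentile of the array, so that 0 is a spot at that percentile. This percentile lay between 1161 and 1608 intensity units, 61.9% to 69.2% of probes were well above background on an array, and no member's reported probe was saturated. For 6 of the 12 arrays the scanner files and the value table name different samples, and the value table was followed. Under it, Ino80 stood at 25.2%, 20.4% and 24.0% of the shNT signal at days 2, 4 and 6, which is no independent check, since the table was chosen with this known. With the samples as attached to the scanner files, limma called 0 of the 43 carrier genes on each day, and 0, 1 and 1 had an unadjusted p under 0.05. Over all genes it also called 0 on each day. By the value table, each group so attached holds 1 array of each hairpin, so these counts say nothing particular to the carriers.

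Markers of other cell states moved with the hairpin. Of 9 measured embryonic stem cell markers, 9 were lower in shIno80 at days 4 and 6, and all were well above background on every array. Their summed level at day 6 was 266 to 275 times the 75th percentile in shIno80, against 656 to 719 times in shNT. Of 9 trophectoderm markers, 8 were higher and 1 lower at day 6, with a sum of 521 to 544 in shIno80, against 25.8 to 29.2 in shNT. The sums at day 6 were 4.92 to 4.96 in shIno80 and 4.10 to 4.53 in shNT for 9 fibroblast markers, with 5 higher and 3 lower, and 55.9 to 58.7 in shIno80 and 12.3 to 12.6 in shNT for 8 primitive endoderm markers, with 2 higher and 2 lower. Most of that sum is Sparc (2.44 on the log2 scale), while Gata4, Gata6, Sox17 and Foxa2 did not pass and the list's median was −0.06. Among the fibroblast markers, with a median of 1.32, Col1a1, Dcn and Col1a2 were higher (3.91, 3.85 and 1.95) and Fbln1, which makes up most of the sum in shNT, was lower (−0.87). They were 8.55 to 8.75 in shIno80 and 9.89 to 10.5 in shNT for 7 neural markers, with 2 higher and 4 lower, and 1.04 to 1.12 in shIno80 and 1.15 to 1.31 in shNT for 5 macrophage markers, of which none passed at day 6. Fgf4, Elf5, Postn and Neurog2 had no probe that passed the filter. Lum, Gata4, Ptprc and Aif1 passed it through groups of 1 hairpin alone, and none of them was called at day 6. The marker counts are to be read beside the 21.8% of all genes that were higher and the 28.4% that were lower at day 6, and the 21.3% lower at day 4. The endoderm list, at 25% each way at day 6, lay near these shares. The part of these markers in the carrier results was not tested, and in RNA from whole cultures fewer cells of a type and less RNA per cell cannot be told apart.

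More carrier genes were lower than higher in shIno80 on each day. A gene passed when its adjusted p was under 0.05 in limma's test, with Benjamini-Hochberg adjustment over 19189 genes. At day 2, 6 carrier genes were lower and 2 higher, or 14% and 4.65% of the 43, where 6.36% of all genes were lower and 6.26% higher. Each of these day 2 calls of carrier genes was lost when only that day's 4 arrays were fitted. At day 4, 13 were lower and 7 higher, or 30.2% and 16.3%, beside 21.3% and 21.1% of all genes. At day 6, 15 were lower and 7 higher, or 34.9% and 16.3%, beside 28.4% and 21.8% of all genes. The shares of carrier genes that were higher lay under those of all genes on each day, and the shares that were lower lay above them; these differences in share have no test. Over the 36 genes that passed the filter through both hairpins, 6 were lower and 2 higher at day 2, 12 and 7 at day 4, and 14 and 6 at day 6. The share of all genes under that stricter filter was not counted, so these counts have no background to be read against.

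The median log2 fold change of the 43 genes was −0.13, −0.16 and −0.16 at days 2, 4 and 6, where that of all genes was 0.01, −0.05 and −0.11. At days 2, 4 and 6, 4.65%, 25.6% and 30.2% of the 43 changed by more than 2-fold, beside 5.08%, 19.5% and 23.6% of all genes. The split depended on the processing. The value table holds scaled mean intensities rather than the background-subtracted ones, so it differs in background treatment as well as in scaling. With the value table, the median of all genes at day 6 was 0.06, and 11 carrier genes were higher and 12 lower, and with quantile normalization these were 10 and 14. With median scaling the median of all genes was −0.19 at day 4 and −0.21 at day 6, and at day 2 the carrier genes split into 0 higher, with 5 at an unadjusted p under 0.05, and 6 lower. Of the calls over all genes, 43.5% were higher at day 6 and 49.8% at day 4, against 62% with the value table at day 6 and 39.4% with median scaling at day 4. Relative to the median of all genes in the main scaling, 17 carrier genes lay above and 26 below at day 2. The counts were 19 and 24 at day 4, and 21 and 22 at day 6. Median scaling shifts all genes of an array alike, so its counts are the same by construction. With the value table the counts were 18 and 25, 19 and 24, and 21 and 22 at days 2, 4 and 6. With quantile normalization they were 17 and 26, 18 and 25, and 19 and 24.

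**Figure D1:**
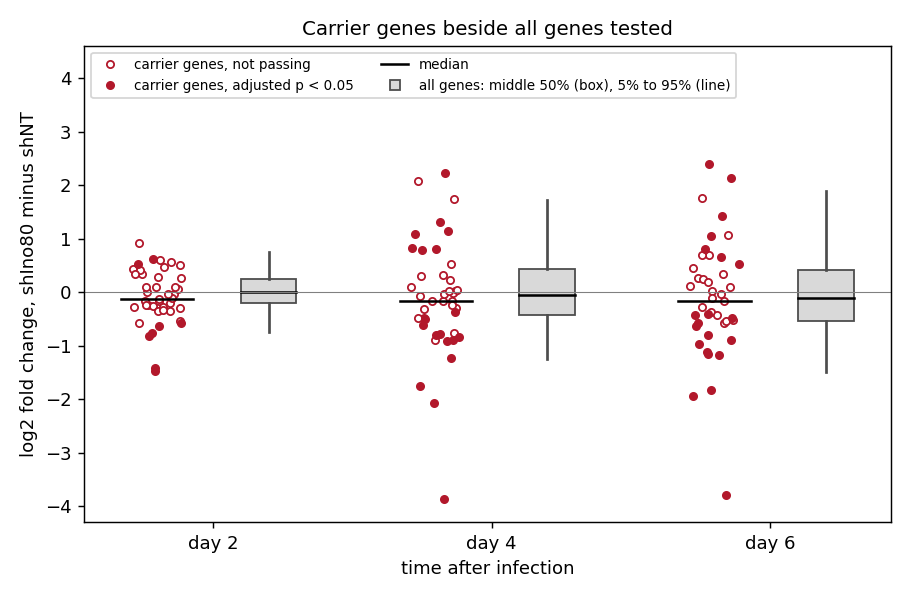
Log2 fold change of 42 of the 43 tested carrier genes (red points, filled where adjusted p was under 0.05) beside all 19189 genes tested (grey box for the middle 50%, line for 5% to 95%, black bar for the median), by day. The carrier medians, over all 43, lay at −0.13, −0.16 and −0.16, and the point at −3.86 at day 4 lay far below the 5% line of all genes at −1.25.

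Of the 43 genes, 6 passed on all 3 days, 18 passed on none, and 18 passed in the same direction at both days 4 and 6, 12 of them lower and 6 higher. As shares these were 14%, 41.9%, 41.9%, 27.9% and 14%, where those of all genes were 9.05%, 41.3%, 34.9%, 18.5% and 16.4%. Slc36a1 alone among them passed in opposite directions, higher at day 2 and lower at day 6, or 2.33% of the 43 beside 1.2% of all genes.

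**Figure D2:**
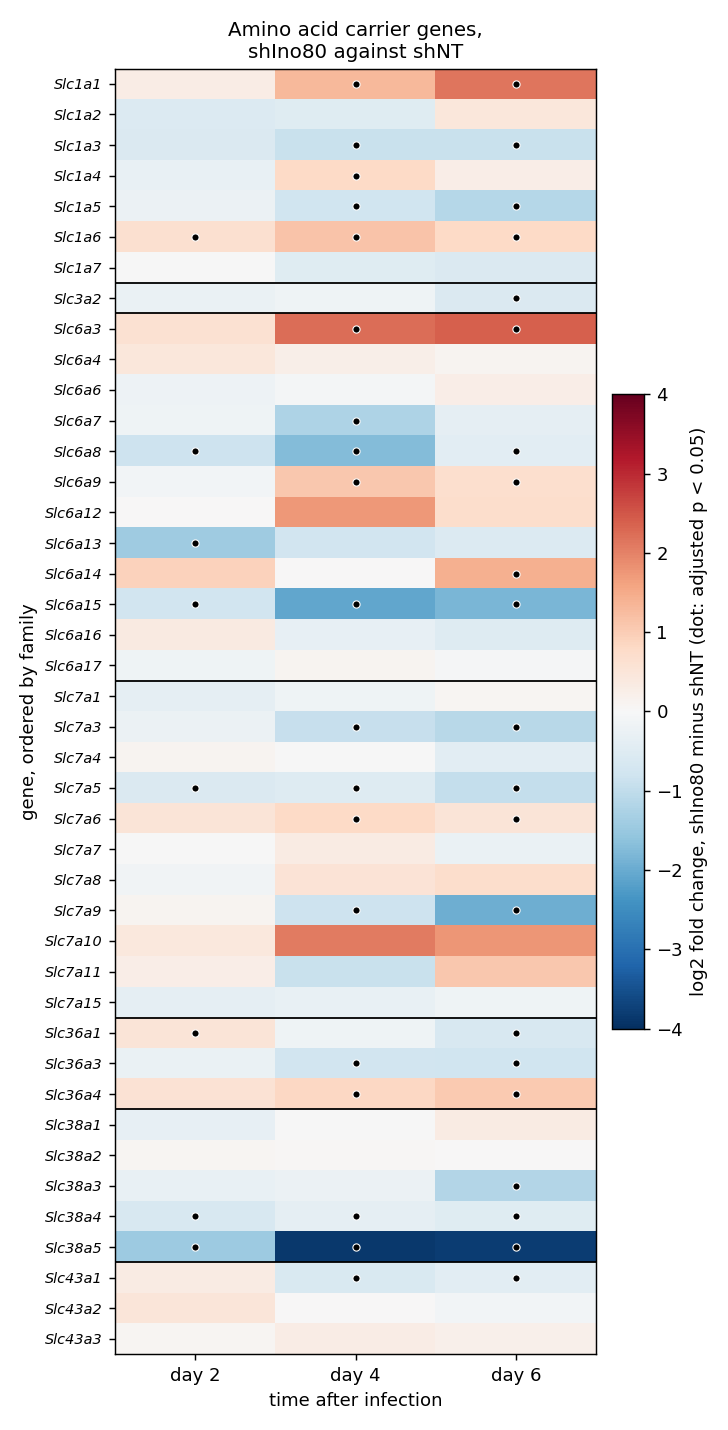
Log2 fold change, shIno80 minus shNT, of 42 of the 43 tested carrier genes (rows, ordered by family with black lines between families) at days 2, 4 and 6 (columns), with a black dot where adjusted p was under 0.05. The darkest blue cells are Slc38a5 at days 4 and 6. The darkest red ones are Slc6a3 at days 6 and 4, at 2.40 and 2.23, followed by Slc1a1 at day 6, at 2.14.

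The strongest fall was in Slc38a5, which encodes SNAT5, a sodium-coupled carrier of glutamine, asparagine, serine and glycine of the system N type. Its reported probe lies at chrX:6713250-6713309 (mm7, plus strand), per the file headers. At day 2 it read −0.32 and −0.68 in the shIno80 arrays, against 0.88 and 1.06 in the shNT arrays. At day 4 it read −4.20 and −4.10 in the shIno80 arrays, against −0.58 and 0.00 in the shNT arrays. At day 6 it read −4.74 and −4.55 in the shIno80 arrays, against −0.85 and −0.86 in the shNT arrays. Both shIno80 arrays lay below both shNT arrays on each day, with the gap widest at the later days. The gene was 2.76-fold lower at day 2 (−1.47 ± 0.20 SE on the log2 scale, adjusted p = 0.00394), and stood at 6.88% of shNT at day 4 and 7.24% at day 6 (−3.86 ± 0.20 and −3.79 ± 0.20, adjusted p = 7.77e-06 and 4.33e-06). With the value table the differences at days 4 and 6 were smaller, at −2.90, adjusted p = 9.21e-08 and −2.51, adjusted p = 1.63e-07. The day 2 call was lost when limma was fitted to that day's 4 arrays alone (adjusted p = 0.0997).

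The RefSeq promoter window of Slc38a5, from 250 bases before to 50 after the gene's start, is shown because this gene changed most, with a CACGTG E-box in capitals, the letters bound by Myc-type factors among others. It lies at chrX:8271131-8271430 (GRCm38.p6, plus strand).
Slc38a5: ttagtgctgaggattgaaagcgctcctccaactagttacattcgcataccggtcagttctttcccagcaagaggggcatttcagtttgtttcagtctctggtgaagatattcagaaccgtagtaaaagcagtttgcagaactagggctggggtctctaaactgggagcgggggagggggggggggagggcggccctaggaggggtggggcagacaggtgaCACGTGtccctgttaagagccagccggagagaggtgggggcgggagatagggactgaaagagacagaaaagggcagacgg
The E-box began at position −30 from the start. RefSeq windows matched 31 of the 43 genes, and 7 of these genes held a CACGTG, among them Slc6a3, Slc1a6, Slc36a1 and Slc43a1, which did not move alike. Counted by window, 7 of their 51 (13.7%) held it, as did 7.15% of all 32851. The match describes the letters and says nothing of binding.

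The other carriers of the Slc38 family, which supply neutral amino acids such as glutamine and alanine, changed less. Slc38a4, which encodes SNAT4, read 1.99 and 1.91 in shIno80, against 2.43 and 2.73 in shNT at day 2. It read 2.41 and 2.37 in shIno80, against 2.68 and 2.84 in shNT at day 4. It read 2.17 and 2.11 in shIno80, against 2.59 and 2.65 in shNT at day 6. The shIno80 arrays were the lower ones on each day, and the gene passed on all 3 (−0.64 ± 0.12, −0.37 ± 0.12 and −0.48 ± 0.12 on the log2 scale, adjusted p = 0.0134, 0.0377 and 0.00996). A second probe of Slc38a4 went the other way, at −0.03, 0.32 and 0.47, and passed as higher at day 6 (adjusted p = 0.0161), and the mean of both probes left no call on any day. The call at day 2 was also lost without replicate 2 of shIno80 (−0.60, adjusted p = 0.0707), that at day 6 without replicate 2 of shNT (−0.45, adjusted p = 0.0547) or of shIno80 (−0.45, adjusted p = 0.0553), and that at day 4 under 16 of 21 alternatives, with adjusted p up to 0.892.

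Slc38a3, which encodes SNAT3, the other system N carrier, passed at day 6 alone. It read −3.06 and −3.55 in shIno80, against −2.60 and −3.44 in shNT at day 2. It read −3.06 and −4.01 in shIno80, against −3.22 and −3.37 in shNT at day 4. It read −3.45 and −3.27 in shIno80, against −1.97 and −2.41 in shNT at day 6. The groups interleaved or overlapped on the first 2 days, and both shIno80 arrays were lower on the last (−1.17 ± 0.37, adjusted p = 0.0276). That call was lost without replicate 1 of shNT (−0.95, adjusted p = 0.133), replicate 1 of shIno80 (−1.08, adjusted p = 0.113) or replicate 2 of shIno80 (−1.26, adjusted p = 0.0718).

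Slc38a1 and Slc38a2, which encode the system A carriers SNAT1 and SNAT2, passed on no day by their reported probes. Slc38a2 read 5.35 and 5.38 in shIno80, against 5.14 and 5.46 in shNT at day 2. It read 5.78 and 5.85 in shIno80, against 5.75 and 5.81 in shNT at day 4. It read 5.39 and 5.34 in shIno80, against 5.34 and 5.35 in shNT at day 6. The arrays of both hairpins overlapped on each day, with differences of 0.07 ± 0.12, 0.04 ± 0.12 and 0.02 ± 0.12. Further kept probes of Slc38a2 gave 0.03 to 0.18 at day 2, −0.04 to 0.47 at day 4 and 0.17 to 0.42 at day 6. The dimmest of them passed as higher at day 4 (0.47, adjusted p = 0.0418) and not at day 6 (0.37, adjusted p = 0.0883), and the others passed on no day. Slc38a1 read 2.81 and 2.95 in shIno80, against 3.04 and 3.38 in shNT at day 2. It read 3.34 and 3.33 in shIno80, against 3.33 and 3.39 in shNT at day 4. It read 3.68 and 3.45 in shIno80, against 3.26 and 3.18 in shNT at day 6. Its differences went from below to above 0 (−0.33 ± 0.14, −0.03 ± 0.14 and 0.34 ± 0.14, adjusted p = 0.163, 0.897 and 0.0643). Slc38a1 has 5 further kept probes, whose differences were −0.12 to −0.52 at day 2, −0.45 to 0.05 at day 4 and 0.14 to 0.32 at day 6, and 3 of them passed as lower at days 2 and 4, 1 of these 3 also as higher at day 6 (0.32, adjusted p = 0.0401).

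Carriers that move glutamine and other small neutral amino acids by exchange belong to Slc1. Slc1a5 encodes ASCT2, a main route of glutamine into growing cells. It read 2.36 and 2.16 in the shIno80 arrays, against 2.67 and 2.34 in the shNT arrays at day 2. It read 1.33 and 1.10 in the shIno80 arrays, against 2.03 and 2.02 in the shNT arrays at day 4. It read 1.11 and 1.18 in the shIno80 arrays, against 2.33 and 2.27 in the shNT arrays at day 6. The groups overlapped at day 2 and were apart at days 4 and 6, with shIno80 at 57.2% and 44.9% of shNT (−0.81 ± 0.14 and −1.15 ± 0.14, adjusted p = 0.00192 and 0.000226). Slc1a4, which encodes ASCT1, a carrier of alanine, serine and cysteine, went the other way at day 4. It read −1.64 and −1.91 in the shIno80 arrays, against −1.26 and −1.69 in the shNT arrays at day 2. It read −0.98 and −1.09 in the shIno80 arrays, against −1.82 and −1.85 in the shNT arrays at day 4. It read −0.66 and −0.66 in the shIno80 arrays, against −0.73 and −1.13 in the shNT arrays at day 6. Only at day 4 did it pass, 1.74-fold higher (0.80 ± 0.18, adjusted p = 0.00785), and a further probe gave 0.92 at day 4 (adjusted p = 0.0149).

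The promoter of Slc1a4 is shown because the gene is a textbook target of ATF4, the factor that answers amino acid shortage, and its window holds a C/EBP-ATF response element. It lies at chr11:20332664-20332963 (GRCm38.p6, minus strand), and capitals mark the element, TGATGNAAN, on the opposite strand to the gene.
Slc1a4: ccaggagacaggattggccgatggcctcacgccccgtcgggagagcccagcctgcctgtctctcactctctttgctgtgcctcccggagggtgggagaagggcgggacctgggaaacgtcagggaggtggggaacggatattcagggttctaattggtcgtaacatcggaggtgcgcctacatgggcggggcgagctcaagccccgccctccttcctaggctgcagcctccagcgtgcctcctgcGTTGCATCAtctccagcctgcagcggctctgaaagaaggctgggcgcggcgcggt
The element spans the start, from position −5. Slc7a11 and Slc7a7 also held the letters, which were in 4 of the 51 carrier windows (7.84%) and in 3.95% of all windows. In Slc7a11, 1 of its matches overlaps an ATGCAAAT octamer, which 1.74% of all windows held and which was otherwise found in Slc6a12. TCAAGGTCA, the letters of an Esrrb-type site, was in no carrier window and in 0.423% of all. The searches covered both strands.

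The glutamate carriers of Slc1, which take up glutamate and aspartate with sodium, split. Slc1a1 encodes EAAT3, also called EAAC1, which carries cysteine as well as glutamate. Its reported probe, at chr19:28612364-28612423 (mm7, plus strand), read −1.91 and −1.67 in the shIno80 arrays, against −2.15 and −2.0 in the shNT arrays at day 2. It read −1.35 and −1.12 in the shIno80 arrays, against −2.80 and −2.29 in the shNT arrays at day 4. It read −0.52 and −0.64 in the shIno80 arrays, against −2.59 and −2.86 in the shNT arrays at day 6. The gene rose 2.48-fold at day 4 and 4.41-fold at day 6 (1.31 ± 0.19 and 2.14 ± 0.19, adjusted p = 0.000759 and 4.31e-05), and its other kept probe gave 1.16 and 1.73. Slc1a3 encodes EAAT1, the glial glutamate carrier also called GLAST. It read −0.47 and −0.62 in the shIno80 arrays, against −0.17 and 0.24 in the shNT arrays at day 2. It read −0.98 and −1.38 in the shIno80 arrays, against −0.36 and −0.20 in the shNT arrays at day 4. It read −1.10 and −1.41 in the shIno80 arrays, against −0.23 and −0.49 in the shNT arrays at day 6. Both shIno80 arrays were the lower on each day, and the gene passed at days 4 and 6 (−0.90 ± 0.20 and −0.89 ± 0.20, adjusted p = 0.00671 and 0.00587). Its 2 further probes gave −0.57 and −0.69 at day 4 and did not pass, the call at day 4 was lost without replicate 2 of shIno80 (−0.70, adjusted p = 0.0533), and that at day 6 with the mean of the probes (−0.63, adjusted p = 0.0673).

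Slc1a6, which encodes EAAT4, the glutamate carrier of Purkinje cells, was higher on all 3 days. It read −2.52 and −2.19 in the shIno80 arrays, against −3.15 and −2.81 in the shNT arrays at day 2. It read −0.01 and −0.01 in the shIno80 arrays, against −1.17 and −1.11 in the shNT arrays at day 4. It read −0.47 and −0.64 in the shIno80 arrays, against −1.20 and −1.50 in the shNT arrays at day 6. Both shIno80 arrays were the higher on each day, by 1.54-fold, 2.19-fold and 1.74-fold (0.63 ± 0.17, 1.13 ± 0.17 and 0.80 ± 0.17, adjusted p = 0.0454, 0.000869 and 0.00431). The day 2 call was lost under 13 of 21 alternatives, with adjusted p up to 0.254, while those at days 4 and 6 were kept under all 21. Slc1a2, which encodes EAAT2, was well above background on both arrays in shNT at day 2 alone, and Slc1a7, which encodes EAAT5, likewise. Neither passed on any day.

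In the heteromeric carriers, the light and heavy chain of the large neutral amino acid exchanger were both lower at day 6. Slc7a5 encodes LAT1, which brings in leucine and other large neutral amino acids, and Slc3a2 encodes 4F2hc, the heavy chain that LAT1 and several other Slc7 carriers need. Slc7a5, with its probe at chr8:120523247-120523306 (mm7, minus strand), read 1.66 and 1.64 in the shIno80 arrays, against 2.24 and 2.22 in the shNT arrays at day 2. It read 1.56 and 1.60 in the shIno80 arrays, against 2.12 and 2.05 in the shNT arrays at day 4. It read 1.36 and 1.42 in the shIno80 arrays, against 2.23 and 2.48 in the shNT arrays at day 6. The arrays of a group lay close together and the hairpins apart on each day, with shIno80 at 66.9%, 70.4% and 51.3% of shNT (−0.58 ± 0.10, −0.51 ± 0.10 and −0.96 ± 0.10, adjusted p = 0.0106, 0.00446 and 0.000124). Without replicate 2 of shIno80 the day 2 call was lost (−0.57, adjusted p = 0.0534).

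Slc3a2 read 4.61 and 4.49 in the shIno80 arrays, against 4.85 and 4.77 in the shNT arrays at day 2. It read 4.49 and 4.46 in the shIno80 arrays, against 4.67 and 4.61 in the shNT arrays at day 4. It read 4.28 and 4.45 in the shIno80 arrays, against 4.93 and 4.96 in the shNT arrays at day 6. Both shIno80 arrays were the lower on each day, and the gene passed at day 6 (−0.58 ± 0.10, adjusted p = 0.00151) but not at day 2 or 4 (−0.26 ± 0.10 and −0.16 ± 0.10, adjusted p = 0.137 and 0.235). A further probe gave −0.57 at day 6 (adjusted p = 0.00229). With quantile normalization the day 6 call was lost (−0.40, adjusted p = 0.0568).

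**Figure D3:**
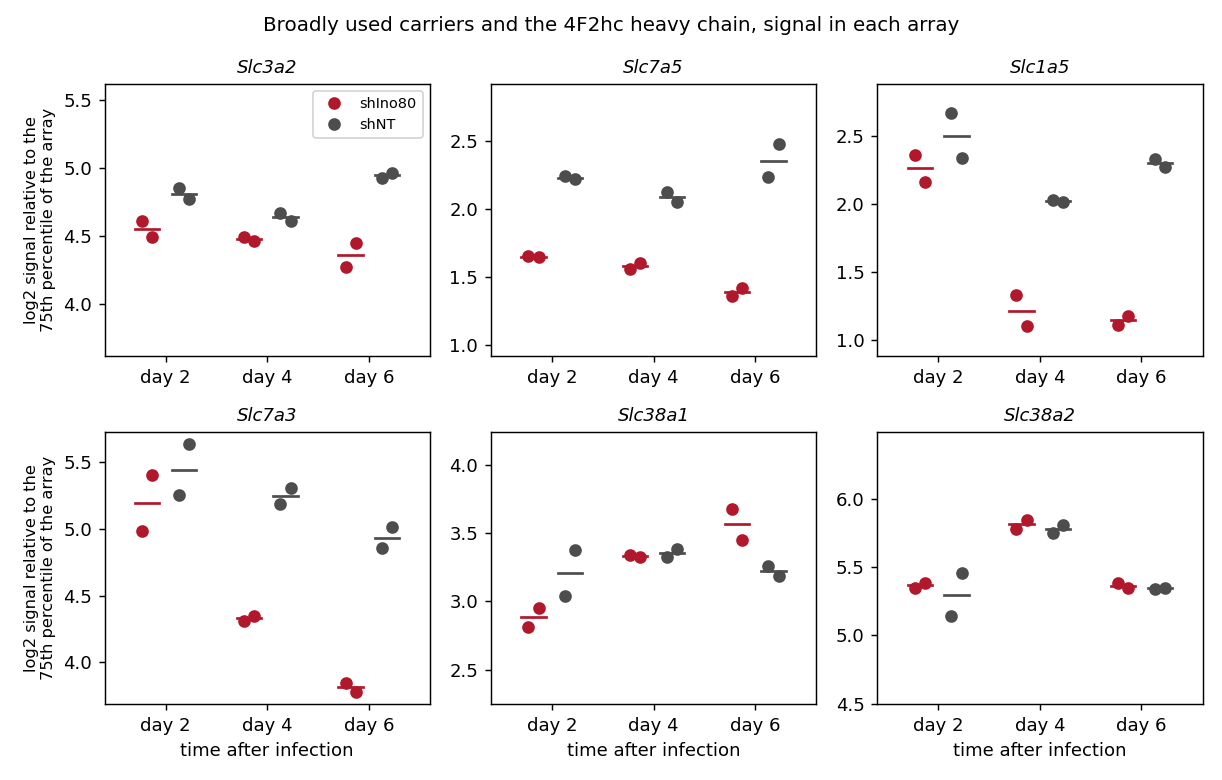
Log2 signal relative to the array's 75th percentile in each array for 6 genes, by day, with shIno80 in red left of shNT in grey, points for arrays and bars for group means. Slc7a5 lay lower in shIno80 on every day, Slc1a5 and Slc7a3 separated at days 4 and 6, Slc3a2 lay 0.58 lower at day 6, and Slc38a2 overlapped throughout.

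The other light chains moved in several directions. Slc7a6, which encodes y+LAT2, an exchanger of arginine for glutamine, was 1.72-fold higher at day 4 and 1.43-fold higher at day 6 (0.79 ± 0.17 and 0.52 ± 0.17, adjusted p = 0.00702 and 0.037). Without replicate 2 of shNT the day 4 value was 0.64, adjusted p = 0.0532, and the day 6 call was lost under 8 of 21 alternatives, with adjusted p up to 0.136. Its second probe passed at days 2 and 4 (0.60 and 0.63, adjusted p = 0.0334 and 0.00844) and not at day 6 (0.22). Slc7a7, which encodes y+LAT1, did not pass (−0.03 ± 0.21, 0.32 ± 0.21 and −0.28 ± 0.21), nor did Slc7a8, which encodes LAT2 (−0.13 ± 0.47, 0.53 ± 0.47 and 0.69 ± 0.47).

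Slc7a9 encodes the light chain of the kidney's cystine and dibasic amino acid carrier, whose heavy chain gene Slc3a1 stayed at background on all 12 arrays. Its probe, at chr7:32356636-32356695 (mm7, plus strand), read −4.84 and −4.51 in the shIno80 arrays, against −4.79 and −4.75 in the shNT arrays at day 2. It read −5.42 and −5.44 in the shIno80 arrays, against −4.59 and −4.60 in the shNT arrays at day 4. It read −5.66 and −5.17 in the shIno80 arrays, against −3.44 and −3.49 in the shNT arrays at day 6. The hairpins overlapped at day 2 and lay apart later, with shIno80 at 56.2% and 25.9% of shNT (−0.83 ± 0.17 and −1.95 ± 0.17, adjusted p = 0.00431 and 3.88e-05). With marked local backgrounds set to the median before a normexp correction, the values were −0.27, adjusted p = 0.098 at day 4 and −1.05, adjusted p = 2.73e-05 at day 6.

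Slc7a11, which encodes xCT, the light chain of the exchanger of cystine for glutamate, was dim. It read −6.87 and −5.43 in the shIno80 arrays, against −5.90 and −6.92 in the shNT arrays at day 2. It read −6.25 and −5.48 in the shIno80 arrays, against −4.25 and −5.69 in the shNT arrays at day 4. It read −5.06 and −7.44 in the shIno80 arrays, against −6.57 and −8.06 in the shNT arrays at day 6. Only the 2 shNT arrays of day 4 were both well above background, and no difference passed (adjusted p = 0.907, 0.478 and 0.372). Slc7a10, which encodes Asc-1, was well above background on both shIno80 arrays at days 4 and 6 and on 1 and 0 shNT arrays, and at 2.07 ± 0.94 and 1.77 ± 0.94 it did not pass either.

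Among the carriers of arginine and lysine, Slc7a3 fell and Slc7a1 did not pass. Slc7a3 encodes CAT3, a cationic amino acid carrier. It read 4.99 and 5.41 in the shIno80 arrays, against 5.25 and 5.64 in the shNT arrays at day 2. It read 4.31 and 4.35 in the shIno80 arrays, against 5.19 and 5.31 in the shNT arrays at day 4. It read 3.85 and 3.78 in the shIno80 arrays, against 4.86 and 5.01 in the shNT arrays at day 6. The arrays overlapped at day 2, and shIno80 stood at 52.9% and 45.9% of shNT later (−0.92 ± 0.17 and −1.12 ± 0.17, adjusted p = 0.00282 and 0.000794). Slc7a1, which encodes CAT1, the more widely used carrier, read −4.61 and −4.88 in shIno80, against −4.38 and −4.39 in shNT at day 2. It read −4.84 and −4.82 in shIno80, against −4.24 and −5.09 in shNT at day 4. It read −4.61 and −4.37 in shIno80, against −4.50 and −4.66 in shNT at day 6. Its differences were −0.36 ± 0.25, −0.16 ± 0.25 and 0.09 ± 0.25, with adjusted p of at least 0.418. Slc7a4 and Slc7a15, for which less is known, did not pass on any day, with differences of −0.43 to 0.10.

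The Slc6 family, sodium- and chloride-coupled carriers of amino acids, transmitters and related molecules, held 13 of the tested genes, of which 3, 4 and 3 were lower and 0, 2 and 3 higher at days 2, 4 and 6. The shares that were lower were 23.1%, 30.8% and 23.1%, beside 6.36%, 21.3% and 28.4% of all genes. Those that were higher were 0%, 15.4% and 23.1%, beside 6.26%, 21.1% and 21.8% of all genes. Slc6a15 encodes B0AT2, a carrier of proline and branched-chain amino acids, and its probe lies at chr10:102905413-102905472 (mm7, plus strand). It read −1.18 and −1.42 in the shIno80 arrays, against −0.55 and −0.51 in the shNT arrays at day 2. It read −2.63 and −2.94 in the shIno80 arrays, against −0.66 and −0.76 in the shNT arrays at day 4. It read −2.37 and −2.36 in the shIno80 arrays, against −0.49 and −0.57 in the shNT arrays at day 6. Both shIno80 arrays were lower on each day, at 58.5%, 23.7% and 28.1% of shNT (−0.77 ± 0.13, −2.08 ± 0.13 and −1.83 ± 0.13, adjusted p = 0.00891, 1.5e-05 and 1.56e-05). Without replicate 2 of shIno80 at day 2, the day 2 value was −0.65, adjusted p = 0.0516. Slc6a7, which encodes PROT, a proline carrier of brain, read −2.63 and −2.84 in shIno80, against −2.62 and −2.53 in shNT at day 2. It read −5.21 and −5.10 in shIno80, against −4.03 and −3.83 in shNT at day 4. It read −4.94 and −4.57 in shIno80, against −4.3 and −4.46 in shNT at day 6. It passed as lower at day 4 (−1.22 ± 0.15, adjusted p = 0.000348) and not at day 6 (−0.37 ± 0.15, adjusted p = 0.0726), where its other probe did pass (−1.35, adjusted p = 0.00119).

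Slc6a8 encodes the creatine carrier, with its probe at chrX:69068908-69068967 (mm7, plus strand). It read 3.14 and 3.33 in the shIno80 arrays, against 3.87 and 4.23 in the shNT arrays at day 2. It read 2.40 and 2.45 in the shIno80 arrays, against 4.04 and 4.31 in the shNT arrays at day 4. It read 2.80 and 2.84 in the shIno80 arrays, against 3.22 and 3.28 in the shNT arrays at day 6. Both shIno80 arrays were the lower on each day, and the gap was widest at day 4, with shIno80 at 56.8%, 29.7% and 74.4% of shNT at days 2, 4 and 6 (−0.82 ± 0.15, −1.75 ± 0.15 and −0.43 ± 0.15, adjusted p = 0.0112, 4.98e-05 and 0.0396). Without replicate 1 of shIno80 the day 2 call was lost (−0.72, adjusted p = 0.0639), and that at day 6 was lost under 8 of 21 alternatives, with adjusted p up to 0.23.

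Slc6a13, which encodes GAT2, a GABA carrier of liver and kidney, passed at day 2 alone. It read −5.08 and −5.38 in the shIno80 arrays, against −3.41 and −4.23 in the shNT arrays at day 2. It read −5.38 and −5.57 in the shIno80 arrays, against −4.72 and −4.69 in the shNT arrays at day 4. It read −5.47 and −5.20 in the shIno80 arrays, against −4.49 and −5.08 in the shNT arrays at day 6. Both shIno80 arrays were the lower on each day (−1.41 ± 0.29, −0.77 ± 0.29 and −0.55 ± 0.29, adjusted p = 0.0175, 0.0598 and 0.148), and its second probe gave −1.27 at day 2 (adjusted p = 0.0243). With the value table the day 2 difference was −0.47, adjusted p = 0.0354. The call was lost without replicate 1 of shNT (−1.0, adjusted p = 0.0584), replicate 1 of shIno80 (−1.56, adjusted p = 0.0506) or replicate 2 of shIno80 (−1.26, adjusted p = 0.0906).

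**Figure D4:**
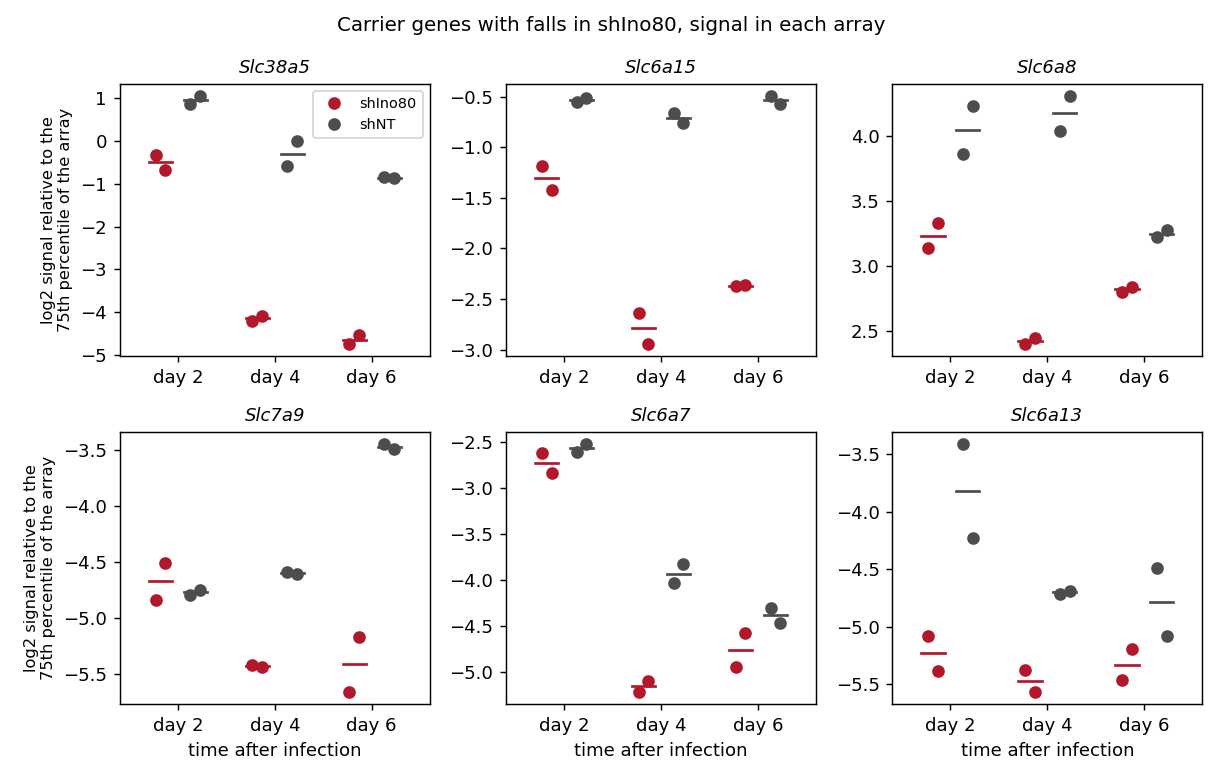
Log2 signal relative to the array's 75th percentile in each array for 6 carrier genes with falls, by day, with shIno80 in red left of shNT in grey, points for arrays and bars for group means. Slc38a5 read below −4 in shIno80 at days 4 and 6, Slc7a9 overlapped at day 2 and lay 1.95 lower at day 6, and Slc6a8 was farthest apart at day 4.

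Among the rises of this family, Slc6a3 encodes the dopamine carrier, and its probe lies at chr13:70510016-70510075 (mm7, plus strand). It read −4.3 and −4.11 in the shIno80 arrays, against −5.15 and −4.45 in the shNT arrays at day 2. It read −2.69 and −2.42 in the shIno80 arrays, against −5.00 and −4.58 in the shNT arrays at day 4. It read −2.79 and −3.14 in the shIno80 arrays, against −5.00 and −5.72 in the shNT arrays at day 6, where 1 of the 2 shNT arrays was well above background. The gene was 4.71-fold higher at day 4 and 5.26-fold higher at day 6 (2.23 ± 0.30 and 2.40 ± 0.30, adjusted p = 0.000581 and 0.000309), with 1.21 and 1.01 as the smallest values at days 4 and 6 over 20 alternatives. Its promoter window is shown as that of the largest rise, at chr13:73536497-73536796 (GRCm38.p6, plus strand), with its E-box in capitals, which begins at position −197 from the start.
Slc6a3: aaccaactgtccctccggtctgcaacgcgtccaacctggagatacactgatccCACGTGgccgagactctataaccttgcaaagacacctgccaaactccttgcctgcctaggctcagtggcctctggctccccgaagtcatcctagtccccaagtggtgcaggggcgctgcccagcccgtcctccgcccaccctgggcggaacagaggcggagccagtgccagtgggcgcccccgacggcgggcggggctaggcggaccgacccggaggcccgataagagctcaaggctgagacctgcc
Slc38a5, the largest fall, and Slc6a3, the largest rise, thus held the same 6 letters at different distances from the start.

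Slc6a9 encodes GlyT1, a glycine carrier that early embryos use to set their volume. It read 0.18 and −0.01 in the shIno80 arrays, against 0.28 and 0.11 in the shNT arrays at day 2. It read 0.90 and 1.09 in the shIno80 arrays, against −0.12 and −0.08 in the shNT arrays at day 4. It read 1.19 and 0.94 in the shIno80 arrays, against 0.61 and 0.19 in the shNT arrays at day 6. The arrays overlapped at day 2, and shIno80 was 2.13-fold higher at day 4 and 1.58-fold higher at day 6 (1.09 ± 0.17 and 0.66 ± 0.17, adjusted p = 0.000991 and 0.0102). The day 6 call was lost without replicate 2 of shNT (0.45, adjusted p = 0.0692) or replicate 1 of shIno80 (0.54, adjusted p = 0.0707), and on the day's 4 arrays alone. Slc6a14, which encodes a broad carrier of neutral and cationic amino acids, read −6.04 and −5.64 in shIno80, against −6.96 and −6.56 in shNT at day 2. It read −6.02 and −6.14 in shIno80, against −5.60 and −6.60 in shNT at day 4. It read −4.78 and −4.43 in shIno80, against −6.16 and −5.91 in shNT at day 6. It was well above background on both arrays in shIno80 at day 6 alone, and so was tested only because it was bright there. At day 6 it was 2.69-fold higher than in shNT by limma's fit (1.43 ± 0.32, adjusted p = 0.00574), with no shNT array well above background. The size is uncertain, and with the normexp variant it did not pass (0.23, adjusted p = 0.104).

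Slc6a6 encodes the taurine carrier and passed on no day. It read 2.36 and 2.53 in shIno80, against 2.52 and 2.75 in shNT at day 2. It read 2.47 and 2.51 in shIno80, against 2.43 and 2.70 in shNT at day 4. It read 2.52 and 2.52 in shIno80, against 2.19 and 2.34 in shNT at day 6. Its differences were −0.20 ± 0.13, −0.08 ± 0.13 and 0.25 ± 0.13. Slc6a12, which encodes the betaine carrier BGT1, did not pass at day 4 (1.73 ± 0.83, adjusted p = 0.13). There it read −3.05 and −2.97 in the shIno80 arrays, against −4.75 and −4.74 in the shNT arrays. Its standard error is shared by all 6 groups and so takes in the spread of the shNT arrays at day 6. Those lay far apart, and at day 6 it read −2.88 and −3.10 in the shIno80 arrays, against −2.04 and −5.33 in the shNT arrays. The difference of 0.70 ± 0.83 did not pass, and it was −0.94, adjusted p = 0.0118, without replicate 2 of shNT and 2.34, adjusted p = 0.000188, without replicate 1. Slc6a4, Slc6a16 and Slc6a17 did not pass on any day, with differences of −0.51 to 0.44.

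**Figure D5:**
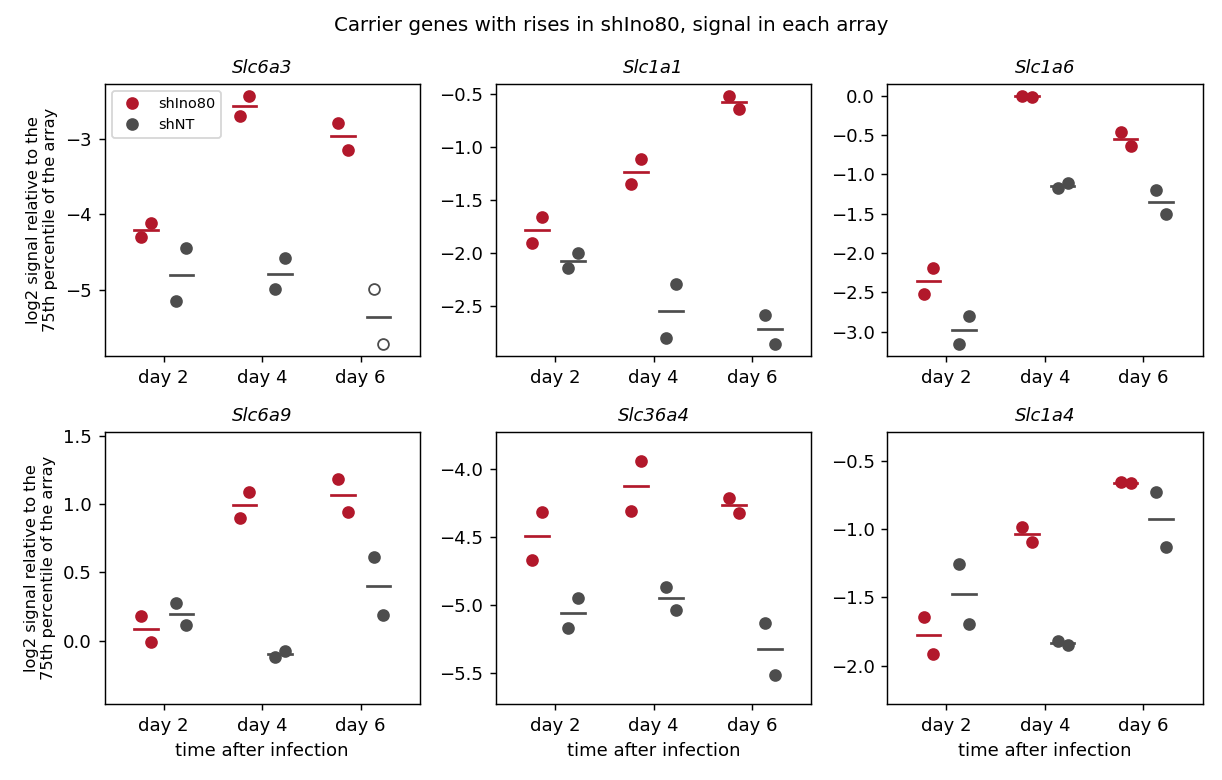
Log2 signal relative to the array's 75th percentile in each array for 6 carrier genes with rises, by day, with shIno80 in red left of shNT in grey, points for arrays, bars for group means and open symbols where fewer than 2 arrays of a group were well above background. Slc1a1 lay 2.14 higher in shIno80 at day 6, Slc1a6 was higher on all 3 days, and Slc1a4 separated at day 4.

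The carriers of Slc36 went both ways. Slc36a1 encodes PAT1, which moves small amino acids out of lysosomes. It read −0.83 and −0.72 in the shIno80 arrays, against −1.21 and −1.39 in the shNT arrays at day 2. It read −1.45 and −1.46 in the shIno80 arrays, against −1.29 and −1.28 in the shNT arrays at day 4. It read −1.53 and −1.48 in the shIno80 arrays, against −0.97 and −0.76 in the shNT arrays at day 6. The shIno80 arrays were the higher pair at day 2 and the lower pair at days 4 and 6 (0.52 ± 0.11, −0.17 ± 0.11 and −0.64 ± 0.11, adjusted p = 0.0191, 0.256 and 0.0015). The day 2 call was lost without replicate 2 of shNT (0.44, adjusted p = 0.0672), replicate 1 of shIno80 (0.58, adjusted p = 0.052) or replicate 2 of shIno80 (0.47, adjusted p = 0.0967), and with median scaling (0.47, adjusted p = 0.0969).

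Slc36a4, which encodes PAT4, a carrier of proline and tryptophan, was 1.77-fold higher at day 4 and 2.07-fold higher at day 6 (0.82 ± 0.19 and 1.05 ± 0.19, adjusted p = 0.00843 and 0.00207). Its other probe gave 0.18 and 0.60 and did not pass. With the value table these were 0.05, adjusted p = 0.82 and 0.32, adjusted p = 0.105, with the normexp variant 0.07, adjusted p = 0.728 and 0.01, adjusted p = 0.949, and the day 4 call was also lost without replicate 2 of shNT (0.74, adjusted p = 0.0544) or of shIno80 (0.64, adjusted p = 0.0655). Slc36a3 was tested only because it was bright in shNT at days 4 and 6, which favours a difference there. It was not well above background on either shIno80 array at these days, so the sizes are uncertain. By limma's fit it passed as 1.72-fold and 1.73-fold lower (adjusted p = 0.0407 and 0.0327), or 1.64-fold at day 6 with dim readings raised. These calls were lost under 11 and 7 of 20 alternatives, with adjusted p up to 0.339.

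In Slc43, whose first 2 members carry leucine and other large neutral amino acids without sodium, Slc43a1, which encodes LAT3, was lower at days 4 and 6 (−0.62 ± 0.12 and −0.41 ± 0.12, adjusted p = 0.00454 and 0.0245). Its day 6 call was lost without replicate 1 of shNT (−0.34, adjusted p = 0.128), replicate 1 of shIno80 (−0.46, adjusted p = 0.0595) or replicate 2 of shIno80 (−0.36, adjusted p = 0.119), and with the value table (−0.18, adjusted p = 0.235). Slc43a2, which encodes LAT4, read −3.10 and −2.80 in shIno80, against −3.57 and −3.27 in shNT at day 2. It read −3.09 and −2.25 in shIno80, against −2.79 and −2.58 in shNT at day 4. It read −3.15 and −3.28 in shIno80, against −3.05 and −3.16 in shNT at day 6. Its reported probe did not pass (0.47 ± 0.25, 0.01 ± 0.25 and −0.11 ± 0.25), while its other probe passed as higher at days 2 and 6 (0.73 and 0.51, adjusted p = 0.0382 and 0.0468). Slc43a3 did not pass (0.09 ± 0.15, 0.31 ± 0.15 and 0.20 ± 0.15).

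The response itself changed between days for 12 of the 43 genes from day 2 to day 4, tested as the difference of the differences. It moved upward for 4 and downward for 8, or 9.3% and 18.6%, where 8.36% and 7.06% of all genes did. They include Slc38a5 (−2.40 ± 0.28, adjusted p = 0.0016) and, upward, Slc6a3 (1.64 ± 0.43, adjusted p = 0.0382). Between days 4 and 6 it moved for Slc6a8, upward (1.32 ± 0.21, adjusted p = 0.0172), and for Slc7a9, downward (−1.12 ± 0.24, adjusted p = 0.0439), 2.33% of the 43 in each direction beside 1.66% and 2.06% of all genes. When 1 array was left out, each of these counts was 0 or 1. Slc6a8 was lowest against shNT at day 4 and Slc7a9 at day 6.

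Genes that handle the same amino acids inside the cell were counted as lists, to be read beside the 28.4% of all genes that were lower and the 21.8% that were higher at day 6. Of 14 measured genes of serine, glycine and threonine metabolism, 1, 6 and 9 were lower at days 2, 4 and 6 and none was higher. As shares these were 7.14%, 42.9% and 64.3%, beside 6.36%, 21.3% and 28.4% of all genes. The median log2 fold change at day 6 was −0.86. The genes lower at day 6 include Tdh and Gcat, which break threonine down (−1.59 and −1.42), and Psph, Shmt2 and Shmt1 of serine and glycine synthesis (−1.83, −1.37 and −1.01). Of 21 genes of amino acid sensing at the lysosome, 10 (47.6%) were lower and none higher at day 6, with a median of −0.29. The largest of these were Tfeb, Rragb and Rragd (−1.88, −1.65 and −1.44), with Mtor, also lower, at −0.38 and Rptor, which did not pass, at −0.08.

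Of 24 measured genes of the ATF4 and amino acid response, 10 (41.7%) were lower and 5 (20.8%) higher at day 6, with a median of −0.04. Atf4 itself was lower on all 3 days (−0.53, −0.39 and −0.85). Asns, asparagine synthetase, was lower at day 2 (−0.42), higher at day 4 (0.67) and did not pass at day 6 (−0.04), while Atf3 rose (3.43) and Nupr1 and Gpt2 fell (−2.64 and −1.80). Of 17 genes of proline, glutamine and arginine metabolism, 6 (35.3%) were lower and 3 (17.6%) higher at day 6, near the shares of all genes, with a median of −0.15. They include Pycr1 of proline synthesis (−2.39), Glul, glutamine synthetase (−1.59), and, higher, Arg2 (1.56), with Aldh18a1 at −0.86 not passing.

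Of 13 cystine and glutathione genes, 6 (46.2%) were lower and 2 (15.4%) higher at day 6, with a median of −0.29. Gclc and Gclm, which encode the subunits of glutamate-cysteine ligase, were at −0.64 and −0.97, Gpx4 at −1.12, Nfe2l2 at −0.71 and Gpx1, which was higher, at 0.71. Of 10 genes known to regulate these carriers, 3 (30%) were lower, near the share of all genes, and none higher at day 6, with a median of −0.16. They were Pdzk1 (−1.20), Mycn (−1.18) and the kinase gene Sgk1 (−0.67), while the ubiquitin ligase genes Nedd4l (0.52) and Nedd4 (−0.07) did not pass. Of 19 amino acid and peptide carriers in other families, 8 (42.1%) were lower and 3 (15.8%) higher, with a median of −0.28. Slc16a10, which encodes TAT1, a carrier of aromatic amino acids, was higher (1.14), and the mitochondrial aspartate-glutamate carrier gene Slc25a12 lower (−1.54). With no shIno80 array well above background, the peptide carrier gene Slc15a1 was at least 4.08-fold and Slc17a7 at least 4.43-fold lower. Slc25a18, likewise dim in shIno80, was 2.73-fold lower by limma's fit. Slc25a18 was tested only because it was bright in shNT at day 6. The median over all genes at that day was −0.11, and no list has a test of its own.

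The 12 members with no probe kept were Slc3a1, Slc6a2, Slc6a5, Slc6a11, Slc6a18, Slc6a19, Slc6a20, Slc7a2, Slc7a12, Slc7a13, Slc7a14 and Slc36a2. Of these, Slc3a1, Slc6a2, Slc6a5, Slc6a19 and Slc7a14 were well above background on no array, and the others on 1 or 2 array spots. No comparison was made for them.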

How the data were processed

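RNA of 12 samples was measured on 1-colour Agilent arrays. The deposited scanner files give each spot's intensity, background-subtracted within an array by Agilent's Feature Extraction software, version 9.5.3.1, per the file headers, and the value table of the authors holds log2 values that equalled each array's mean intensity times 1 factor, within 1e-06. The labels name Cy5, while the files hold green columns. Samples follow the value table, matched to scanner files by value.

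Log2 processed intensity minus the array's 75th percentile was used. Spots marked non-uniform or outlying were dropped (125 probes in all, 1 of a member), 28665 probes passed the filter on dim probes (both arrays of some group well above background), and a gene was read from its brightest kept probe (19189 genes). Names come from the files and a RefSeq table of GRCm38.p6. A change against a group with no array above background is a bound, the bright group's mean over the dim group's. Each dim array was first raised to its lowest signal well above background where the probe lay under that. Where no reading lay under it, the fitted fold change is given instead. A bound does not count the spread among arrays. Limma 3.58.1 in R 4.3.3 fitted 6 group means to 12 arrays (6 residual and 2.19 prior degrees of freedom), after tests on simulated data, and pandas 2.3.3 and matplotlib 3.10.9 were used after it. The number of arrays limits the precision.

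Each slide and scan held 1 day, so additive slide effects drop out of all comparisons of the hairpins; position on the slide goes with the hairpin and cannot be told apart from it. The members, gene lists and tests were chosen with earlier results of these data known. Genes named with values in each array are the 8 largest changes per day that passed and 17 carriers of broad use; pathway lists name their first 2 genes and the largest changes at day 6, at most 5 in all. Values of 2 genes that these rules name are not reported here; both stay in the counts and medians.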

Additional observations from a re-analysis of the deposited data

Results flagged for a closer look

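The response to the hairpin, as the log2 difference shIno80 minus shNT, differed between days for 12 carrier genes, of which 11 are given, in limma's test of the difference of differences. From day 2 to day 4 it moved upward for Slc6a3 by 1.64, Slc6a9 by 1.20, Slc1a4 by 1.10 and Slc1a1 by 1.02. It moved downward for Slc38a5 (−2.40), Slc6a15 (−1.30), Slc6a7 (−1.06), Slc43a1 (−0.95), Slc6a8 (−0.93), Slc7a9 (−0.93) and Slc36a1 (−0.69). From day 4 to day 6 it moved upward for Slc6a8 by 1.32 and downward for Slc7a9 (−1.12). Every day lies on its own slide, so these differences assume that slide effects are additive. Groups of 2 arrays are too small for a search for outlying arrays.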

How the results depend on the processing

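Over up to 21 alternatives per call, the 50 calls of carrier genes by day kept direction and call in 935 of 1045 values, lost the call in 110 and never changed sign, and 25 of the 50 were kept under all that were run for them. The planned normexp correction is left out of that tally: some spots had a local background up to 63919 units above their own signal, and with it 3 calls changed sign (Slc1a6 at day 2 to −0.32, Slc36a4 at day 4 to −0.23 and Slc36a3 at day 6 to 0.13). A variant with marked backgrounds set to the median was chosen after seeing the data. The planned normexp gave 0 higher and 0 lower at day 2 (0 and 3 at an unadjusted p under 0.05), 1 and 4 at day 4, 1 and 6 at day 6, and for changes of response 0 and 0 from day 2 to 4 (2 and 4 unadjusted) and 0 and 0 from day 4 to 6 (1 and 0 unadjusted). With the scanner file attachments limma gave 0 carrier genes in either direction on each day (unadjusted, 0 higher on each day and 0, 1 and 1 lower). Over all genes it gave 0 as well. At day 2, genes higher numbered 0 with median scaling (5 unadjusted), 1 with no filter, 4 with the mean of probes, 5 with the replicate block, and 0 on that day's slide alone (4 unadjusted), where 0 were lower (8 unadjusted). At day 6, 11 were higher with the value table. Changes of response from day 2 to 4 that were higher numbered 1 with no filter. From day 4 to 6, 2 were higher with the value table, with probes above background on all 12 arrays and with the replicate block. In the same comparison 0 were lower with median scaling (1 unadjusted), quantile normalization (4), the value table (1), no filter (4) and the replicate block (9). Leaving out 1 array gave 0 to 2 higher and 2 to 6 lower at day 2, 5 to 8 and 10 to 14 at day 4, 5 to 9 and 11 to 16 at day 6, 0 to 5 and 4 to 8 for changes of response from day 2 to 4, and 0 to 1 and 0 to 1 from day 4 to 6. For Slc6a12 at day 6, leaving out 1 array gave −0.94 (without replicate 2 of shNT) to 2.34. The replicate block pairs samples by number alone: deviations of equal-numbered arrays correlated at 0.30, 0.12 and 0.08 at days 2, 4 and 6. Dim probes limit what can be seen of Slc7a11, Slc6a4 and Slc1a7.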

Other observations

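A further 12 probes, of 6 genes of these families, carry older or clone names in the files and so lie outside the members. Named by RefSeq accession or older symbol, Slc38a7, Slc38a9 and Slc38a10 had a probe that passed the filter on dim probes. Not all of the 6 genes were looked up. Slc38a10 read 3.54 and 3.40 in shIno80, against 3.54 and 3.51 in shNT, at day 2, and passed as lower at days 4 and 6 (−0.27 at both, adjusted p = 0.0402 and 0.0309). Slc38a9, which encodes an arginine sensor of the lysosome, did not pass (0.21, 0.32 and 0.35, adjusted p = 0.421, 0.11 and 0.0746), nor did Slc38a7, which encodes a glutamine carrier of the lysosome (0.22, 0.27 and 0.22).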
